A study of Mus musculus with 12 samples.

Results

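The ubiquitin-conjugating enzymes (E2), here the genes with a symbol that begins with Ube2, were followed in 3T3-L1 cells, an established line of mouse embryonic fibroblasts that can be turned into adipocytes by hormones. The members were the non-control probes whose transcript accession belongs to a gene with a Ube2 symbol and that are no pseudogenes. They comprised 78 of 41174 probes and 35 of 18217 genes with a symbol. The question was whether Ube2k, also known as HIP2, whose mRNA was higher at 6 h in both the free and the ribosome-bound pool, is typical of its family. Ube2k had been picked because it rose alike in both pools of these same data, so its like rise is no finding here. Cells at 0 h had been grown to confluency in medium with newborn bovine serum and had received no hormone. Cells at 6 h had been in medium with fetal bovine serum, 0.5 mM isobutylmethylxanthine, 1 µM dexamethasone and 5 µg/ml insulin for 6 h, so hormones and serum changed together. All lysates contained cycloheximide, which holds ribosomes on mRNA, and were separated on sucrose gradients. The non-polysomal pool held gradient fractions 5 to 7, and the polysomal pool held fractions 9 to 11. The resulting 4 groups had 3 biological replicates each, and each of 3 array slides carried 1 replicate of every group.

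An E2 accepts activated ubiquitin from an E1 enzyme on its catalytic cysteine and, together with an E3 ligase that selects the substrate, hands it on. The E2 often decides which kind of ubiquitin chain is built: chains linked through Lys48 mark proteins for the proteasome, whereas chains linked through Lys63 serve signalling and DNA repair. A few E2 carry ubiquitin-like modifiers instead (such as NEDD8 and ISG15), and the UEV proteins Ube2v1 and Ube2v2 have the fold but lack the cysteine.

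Signals are background-subtracted Cy3 intensities on the log2 scale, scaled by control RNAs that had been added to every sample (spike-ins). A difference of 1 on this scale is a 2-fold change. The polysomal change and the non-polysomal change are the signals at 6 h minus those at 0 h in the respective pool, and the M-value is the former minus the latter. A gene is represented by its brightest probe. A value was called when its adjusted p from a limma fit over all probes was below 0.05, and "higher", "lower", "rose" and "fell" are used for called values. Between 55.7% and 60.9% of the probes of an array had a signal well above background, and saturated spots were absent. All 8 fibroblast or preadipocyte markers were well above background on all arrays, as were 4 of 6 adipocyte markers (Adipoq, Cidec, Fabp4, Plin1), Cd3e of 2 leukocyte markers and none of 2 epithelial and 2 endothelial ones. Lep and Epcam were at background throughout. Of the 12 markers of other cell types on the array, 8 were higher in the polysomal pool at 6 h, and Plin1 was lower (-0.91). Among the higher ones were Cdh5 (3.62, well above background on 3 arrays), Cidec (1.53), Cd3e (1.01), Fabp4 (0.97), Adipoq (0.89) and Lep (0.475, at background). Of the 8 fibroblast markers 6 were higher and 1 lower there, while 52.5% of all genes were higher and 14.8% lower. In the non-polysomal pool 3 fibroblast markers were higher and 3 lower, against 24.6% and 25.4% of all genes. In the non-polysomal pool Adipoq was the only one of the 12 that was called (0.58). The part of other cells in the results was not tested, and in such bulk RNA fewer cells of a type and less RNA per cell cannot be told apart. The spike-in offset of the polysomal 6 h arrays was lower (-0.48 to -0.21) than that of the other arrays (0.05 to 0.17), and this scaling put the median M-value of all genes at 0.51, against 0.09 when arrays were scaled to their 75th percentile, 0.01 after quantile normalization and 1.23 with a line fitted to the spike-ins.

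Of the 35 Ube2 genes, 32 were well above background on all 12 arrays. Ube2dnl2 reached that level on 1 array, and Ube2ql1 and Ube2u on none, so their values are no measure of a change. RefSeq promoter windows of mouse build GRCm38.p6 were at hand for 28 of the genes (39 windows). The 250 bases before the annotated start are shown for Ube2k, for Ube2c, whose change differed most between the pools, and for Ube2t and Ube2l6, whose changes were farthest from those of Ube2k, with motifs in capitals. Both strands were searched for the GC box GGGCGG, which is common in promoters of widely expressed genes. They were searched for the CCAAT box, whose letters are its name. The cell cycle homology region of mitotic genes was searched as TTTGAA. Further motifs were the cyclic AMP response element TGACGTCA with its core TGACG, which lies within the longer motif, and the interferon-stimulated response element. The E box was searched as CACGTG.
Ube2k, chr5:65536995-65537244, plus strand: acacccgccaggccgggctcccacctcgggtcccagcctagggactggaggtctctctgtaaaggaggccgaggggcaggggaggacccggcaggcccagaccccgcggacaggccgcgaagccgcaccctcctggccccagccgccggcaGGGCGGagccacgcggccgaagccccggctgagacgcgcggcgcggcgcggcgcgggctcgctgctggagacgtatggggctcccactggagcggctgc
Ube2c, chr2:164769679-164769928, plus strand: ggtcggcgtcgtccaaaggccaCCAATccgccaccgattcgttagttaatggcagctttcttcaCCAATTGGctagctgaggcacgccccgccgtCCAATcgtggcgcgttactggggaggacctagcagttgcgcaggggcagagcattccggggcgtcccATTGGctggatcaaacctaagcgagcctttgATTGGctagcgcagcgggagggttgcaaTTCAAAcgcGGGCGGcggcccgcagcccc
Ube2t, chr1:134962315-134962564, plus strand: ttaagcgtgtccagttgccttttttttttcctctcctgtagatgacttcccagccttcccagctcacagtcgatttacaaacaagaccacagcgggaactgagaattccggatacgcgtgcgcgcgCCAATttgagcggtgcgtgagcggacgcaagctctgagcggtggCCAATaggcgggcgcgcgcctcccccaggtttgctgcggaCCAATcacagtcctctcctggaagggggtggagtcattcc
Ube2l6, chr2:84798578-84798827, plus strand: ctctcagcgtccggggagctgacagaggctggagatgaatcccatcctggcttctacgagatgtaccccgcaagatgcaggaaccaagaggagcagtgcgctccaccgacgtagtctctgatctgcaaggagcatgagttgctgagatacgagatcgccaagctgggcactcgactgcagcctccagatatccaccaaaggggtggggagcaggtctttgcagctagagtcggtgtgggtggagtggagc
The Ube2k window holds 1 GC box, which begins 99 bases before the start. The Ube2c window holds CCAAT on either strand at 6 positions, a pair of them overlapping, and TTCAAA, the reverse complement of the cell cycle homology region, 29 bases before the start. Ube2t has CCAAT at 3 positions and Ube2l6 none of these motifs. A GC box was present in 27 of the 39 Ube2 windows (69.2%) and in 32.7% of all 32851 windows, CCAAT in 20.5% against 33.8%, the TGACG core in 20.5% against 17.8%, and the whole cyclic AMP element in 1 Ube2 window, that of Ube2h (2.56%), against 1.55%. The cell cycle homology region was in 7.69% of the Ube2 windows against 16%, the E box in 5.13% against 6.02%, and the interferon-stimulated element in 0 of the 39 windows against 2.98%. These matches are descriptions of letters and not of bound sites.

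Ube2k, which builds Lys48-linked chains on its own and carries a ubiquitin-binding domain at its C-terminus, rose by about the same amount in both pools. On the non-polysomal arrays at 0 h, its brightest probe gave log2 signals of 12.36, 12.45 and 12.34 in replicates 1 to 3. At 6 h, the non-polysomal values were 13.60, 13.51 and 13.54. The polysomal values were 13.02, 13.21 and 13.22 at 0 h and 14.34, 14.34 and 14.46 at 6 h. Every array at 6 h lay above every array at 0 h of the same pool. The polysomal change was 1.23 ± 0.08 (SE; 2.34-fold, adjusted p = 4.17e-07 by limma) and the non-polysomal change 1.17 ± 0.08 (2.25-fold, adjusted p = 1e-06 by limma).

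The M-value of Ube2k was 0.06, with a 95% interval of -0.19 to 0.31 (adjusted p = 0.686 by limma), and 0.08, 0.06 and 0.03 within the 3 slides. A difference between the pools was thus not detected, and the interval leaves room for one of 0.31. Since Ube2k had been picked for its like rise in both pools, a small M-value was given by that choice. The other 3 probes of Ube2k were called higher in both pools as well. The second gave 11.65, 11.64 and 11.59 at 0 h and 12.87, 12.73 and 12.75 at 6 h in the non-polysomal pool, and 12.21, 12.47 and 12.40 at 0 h and 13.67, 13.66 and 13.77 at 6 h in the polysomal pool. The next probe gave 10.36, 10.49 and 10.33 at 0 h and 11.83, 11.76 and 11.82 at 6 h in the non-polysomal pool, and 10.96, 11.26 and 11.28 at 0 h and 12.72, 12.66 and 12.79 at 6 h in the polysomal pool. The last one was dim, with 3.39, 2.43 and 3.40 at 0 h and 5.07, 4.88 and 4.93 at 6 h in the non-polysomal pool, and 3.28, 3.23 and 3.22 at 0 h and 4.88, 4.87 and 5.01 at 6 h in the polysomal pool. None of the groups at 0 h and 6 h overlapped. The M-values of these probes were 0.18, 0.14 and -0.21, all of them uncalled. Equal change in the pools is a statement on the spike-in scale: the median gene had an M-value of 0.51, and 21% of all genes lay below Ube2k. When the arrays were scaled to their 75th percentile, the Ube2k M-value was -0.36 and called lower (adjusted p = 0.00124 by limma), and after quantile normalization it was -0.49 (adjusted p = 9.55e-05). Relative to the median gene, Ube2k stood at -0.45 on the spike-in scale, -0.45 with the 75th percentile, -0.50 after quantile normalization and -1.02 with a line fitted to the spike-ins.

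**Figure D1:**
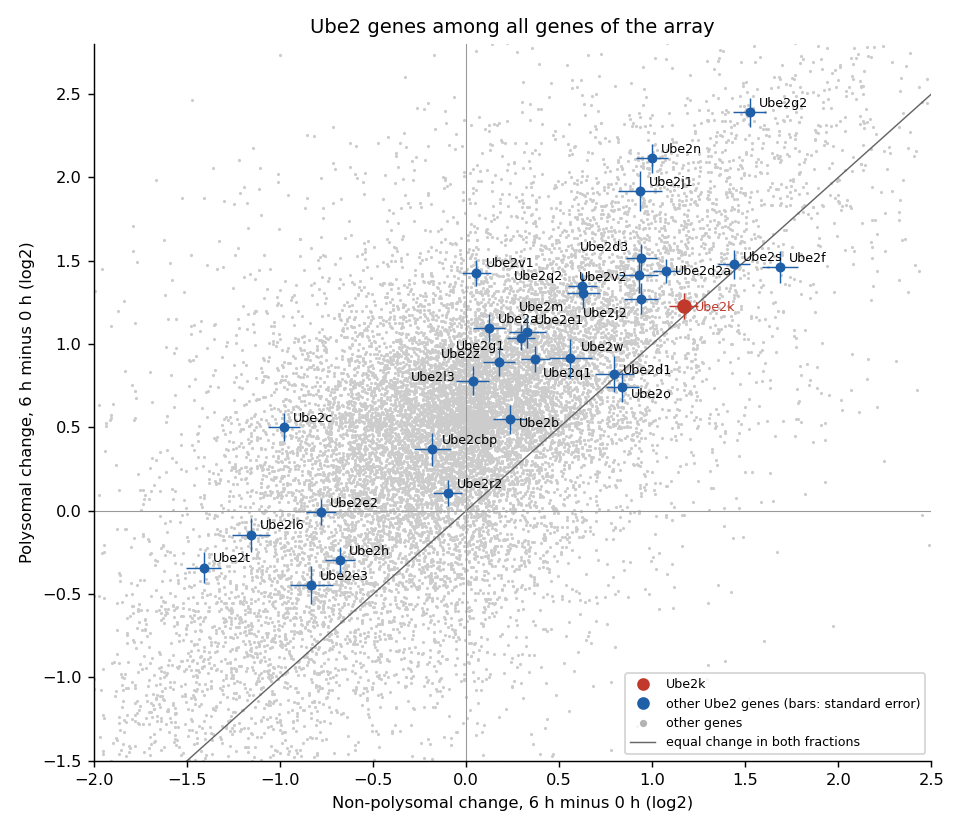
Change from 0 h to 6 h in the non-polysomal pool (horizontal axis, log2) and in the polysomal pool (vertical axis, log2) for 31 of the 32 Ube2 genes measured on all arrays (blue, Ube2k red, bars are standard errors) and for all other genes (grey; genes outside the axes are not drawn). Ube2k lies on the line of equal change at 1.17 and 1.23, most Ube2 genes lie above the line, and Ube2c, Ube2e2, Ube2e3, Ube2h, Ube2l6 and Ube2t, called lower in the non-polysomal pool, lie left of 0, as do the uncalled Ube2cbp and Ube2r2.

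In the family, 27 of 35 genes were higher and 3 lower in the polysomal pool at 6 h. Over all genes the shares were 52.5% higher and 14.8% lower, so that the Ube2 share of 77.1% exceeded the background in the main analysis. With the log2 values deposited by the authors, 29 of the 35 were higher, against 77.9% of all probes. Normexp, another background correction, also gave 29, against 83.3%. The Ube2 share was then near the background. Quantile normalization gave 20 higher, against 21.3% of all probes. One of the 27, Ube2ql1, was not above background on any array. More than 2-fold higher were 16 Ube2 genes, against 22.3% of all genes, and none was more than 2-fold lower, against 6.12%. In the non-polysomal pool 5 Ube2 genes were more than 2-fold higher, against 9% of all genes, and 2 (Ube2t and Ube2l6) more than 2-fold lower, against 10.2%. In the non-polysomal pool 18 Ube2 genes (51.4%) were higher and 6 lower, while 24.6% of all genes were higher and 25.4% lower. The median polysomal change was 0.92 for the Ube2 genes and 0.54 for all genes, and the median non-polysomal change was 0.30 and 0.00. Within the slides the Ube2 median was 0.72 to 1.04 for the polysomal and 0.17 to 0.29 for the non-polysomal change.

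Since Ube2 probes are bright, the shares were also set against the genes whose brightest probe is at or above the median probe. Of the 32 Ube2 genes in that range, 26 were higher in the polysomal pool (background 61.6%) and 18 in the non-polysomal pool (background 35.6%). With the arrays scaled to the 75th percentile, 23 Ube2 genes were higher and 6 lower in the polysomal pool, against 22.5% and 21% of all probes, and 19 were higher and 8 lower in the non-polysomal pool, against 20.2% and 22.6%.

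A rise in both pools, as in Ube2k, was called for 18 Ube2 genes (51.4%) and for 22.9% of all genes. These were Ube2d1, Ube2d2a, Ube2d3, Ube2e1, Ube2f, Ube2g1, Ube2g2, Ube2j1, Ube2j2, Ube2k, Ube2m, Ube2n, Ube2o, Ube2q1, Ube2q2, Ube2s, Ube2v2 and Ube2w. Ube2e3, Ube2h and Ube2t were lower in both pools (8.57%, against 12.3% of all genes). Ube2c was higher in the polysomal and lower in the non-polysomal pool, a combination found in 6.2% of all genes. Ube2e2 and Ube2l6 were lower in the non-polysomal pool and uncalled in the other one (5.71%, against 6.86% of all genes). Higher in the polysomal pool and uncalled in the other one were 8 genes (22.9%, near the 23.4% of all genes). Among them were Ube2a, Ube2b, Ube2cbp, Ube2l3, Ube2ql1, Ube2v1 and Ube2z. Ube2dnl2, Ube2r2 and Ube2u were uncalled in both pools (8.57%, against 24.5% of all genes).

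Ube2k was the 14th highest of the 35 genes in the polysomal change and the 4th highest in the non-polysomal change, but only the 31st in the M-value. These places count Ube2dnl2, Ube2ql1 and Ube2u, whose values are no measure of a change. Ube2u (1.32) stood above Ube2k in the polysomal change, and in the M-value all of them did (1.49, 0.44 and 2.15). In the plane of the changes in both pools, Ube2d2a (distance 0.23 on the log2 scale), Ube2j2 (0.24) and Ube2v2 (0.30) were nearest to Ube2k, followed by Ube2d3 (0.37) and Ube2s (0.37). Ube2t (3.02), Ube2l6 (2.70) and Ube2e3 (2.61) were farthest away. In the size of its non-polysomal rise Ube2k therefore stood at the upper end of its family, and in its M-value at the lower end. The choice of Ube2k for its like rise in both pools of these data fixed the low place in the M-value in advance. Its places are therefore a description and no test.

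**Figure D2:**
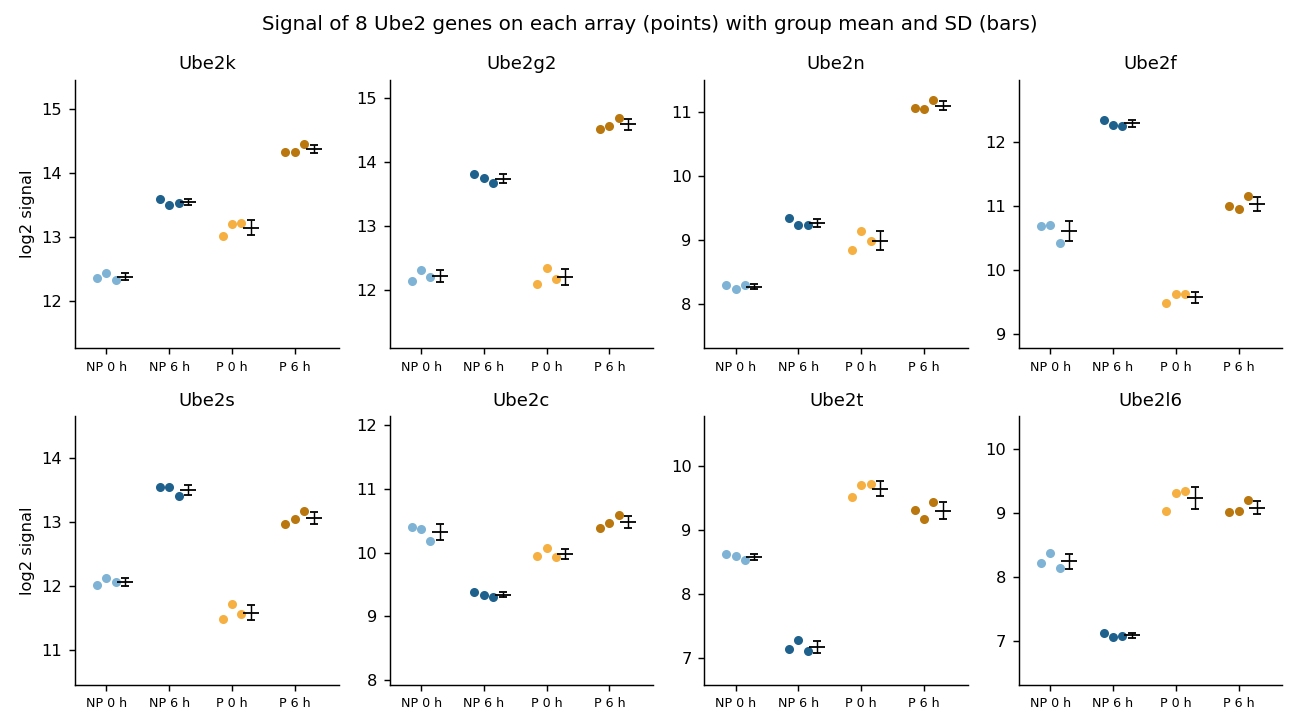
Log2 signal of the brightest probe of 8 Ube2 genes on every array (points; NP, non-polysomal; P, polysomal) with the mean and SD of each group (black bars, n = 3). All panels span the same number of log2 units; Ube2k, Ube2g2, Ube2n, Ube2f and Ube2s are higher at 6 h in both pools, Ube2c moves in opposite directions, and Ube2t and Ube2l6 are lower in the non-polysomal pool.

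Among the enzymes of Lys48 chains and proteasomal targeting, Ube2g2 had the largest polysomal change of the measured family members. Ube2g2 works with ligases of the endoplasmic reticulum (ER) that dispose of misfolded proteins. Its polysomal signals were 12.09, 12.35 and 12.16 at 0 h and 14.52, 14.56 and 14.68 at 6 h, a change of 2.39 ± 0.09 (SE; 5.24-fold, adjusted p = 1.33e-08 by limma). Its non-polysomal signals were 12.14, 12.32 and 12.20 at 0 h and 13.81, 13.74 and 13.67 at 6 h, a change of 1.52 ± 0.09 (2.87-fold, adjusted p = 4.69e-07 by limma). The groups did not overlap in either pool. The M-value was 0.87 ± 0.13 (adjusted p = 0.000554), and 0.58 and 0.40 with its other probes. Ube2g1, which also serves ligases of protein disposal, rose by 1.04 in the polysomal and by 0.30 in the non-polysomal pool, the latter losing its call without replicate 1 (adjusted p = 0.111) or replicate 3 (adjusted p = 0.162). Ube2r2, a partner of cullin ligases, was not called with its brightest probe (0.11 and -0.10), whereas 1 of its 4 probes was called higher in the polysomal pool (0.79), and with quantile normalization the brightest probe fell in both pools (-0.74 and -0.38).

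The 3 genes of Lys63 chains (Ube2n and the UEV genes Ube2v1 and Ube2v2) all rose in the polysomal pool, as did 52.5% of all genes. All 3 had an M-value called higher, as had 40.5% of all genes. Ube2n, the E2 that builds these chains, had polysomal signals of 8.84, 9.13 and 8.98 at 0 h and 11.06, 11.05 and 11.19 at 6 h. Its non-polysomal signals were 8.29, 8.22 and 8.29 at 0 h and 9.34, 9.23 and 9.23 at 6 h. The polysomal change of 2.11 ± 0.09 was larger than the non-polysomal change of 1.00 ± 0.09 (SE), with an M-value of 1.12 ± 0.12 (adjusted p = 0.000102 by limma). With another of its probes the M-value was 0.81. The remaining probe of Ube2n was not well above background on any array at 0 h and gives no measure of the M-value.

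The UEV partners of Ube2n went apart in the non-polysomal pool. Ube2v1 had non-polysomal signals of 13.14, 13.23 and 13.00 at 0 h and 13.23, 13.19 and 13.12 at 6 h, which overlap, and polysomal signals of 13.06, 13.17 and 13.12 at 0 h and 14.47, 14.60 and 14.57 at 6 h. Its M-value of 1.37 ± 0.11 (adjusted p = 1.88e-05 by limma) was among the highest of the family, although another of its probes rose by 0.50 in the non-polysomal pool. After quantile normalization the non-polysomal change of Ube2v1 was called lower (-0.24). Ube2v2 rose in both pools (1.41 and 0.93). Its M-value of 0.49 was 0.06 with the 75th percentile and 0.03 after quantile normalization, both uncalled. It also lost its call with the replicate number as a block (adjusted p = 0.0538) and when any of 7 single arrays was left out, and was 0.31 (uncalled) and 1.08 with its other probes.

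The E2 of the anaphase-promoting complex, the ligase that drives cells out of mitosis, moved in different ways. Ube2c, which begins the chains, had non-polysomal signals of 10.41, 10.37 and 10.18 at 0 h and 9.39, 9.33 and 9.31 at 6 h, a fall of 0.98 ± 0.09 (SE, adjusted p = 6.52e-06 by limma). Its polysomal signals were 9.94, 10.07 and 9.93 at 0 h and 10.39, 10.47 and 10.58 at 6 h, a rise of 0.50 ± 0.09 (adjusted p = 0.000595). The polysomal rise was uncalled with the 75th percentile (0.02) and after quantile normalization (-0.06), but the non-polysomal fall was called under both (-1.04 and -1.09). Its M-value of 1.48 ± 0.12 was the largest among the measured family members (1.47, 1.44 and 1.53 within the slides) and was called with the 75th percentile (1.06) and quantile normalization (1.02) too. Ube2s, which lengthens the chains, had non-polysomal signals of 12.01, 12.13 and 12.05 at 0 h and 13.55, 13.55 and 13.41 at 6 h, and polysomal signals of 11.47, 11.72 and 11.56 at 0 h and 12.97, 13.05 and 13.17 at 6 h. It rose by 1.44 in the non-polysomal and by 1.48 in the polysomal pool, with an M-value of 0.04 (95% interval -0.24 to 0.32), and resembled Ube2k in this. With the 75th percentile and quantile normalization the M-value of Ube2s was called lower (-0.38 and -0.35).

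The E2 anchored in the ER membrane, Ube2j1 and Ube2j2, which act in the disposal of ER proteins, both rose in both pools, as did 22.9% of all genes. Ube2j1 had polysomal signals of 12.65, 12.97 and 12.94 at 0 h and 14.69 and 14.85 at 6 h, and non-polysomal signals of 11.65 and 11.57 at 0 h and 12.59, 12.49 and 12.56 at 6 h. One spot in each of 2 groups was marked as an outlier and left out of the fit, which gave changes of 1.92 ± 0.12 and 0.93 ± 0.12. Its M-value was 0.98 ± 0.17 (adjusted p = 0.00257 by limma), and the call was lost without replicate 3 (adjusted p = 0.101). Ube2j2 rose by 1.27 and 0.94, with an uncalled M-value of 0.33.

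The UBCH5 enzymes (Ube2d) serve many different ligases, and the Ube2e enzymes, Ube2l3, Ube2h and Ube2w were grouped with them here. Of the 9 measured in this group, 6 were higher and 2 (Ube2e3 and Ube2h) lower in the polysomal pool, against 52.5% and 14.8% of all genes. In the non-polysomal pool 5 were higher and 3 lower, against 24.6% and 25.4%. Ube2d3 had the largest polysomal change of the group. Its polysomal signals were 11.51, 11.77 and 11.75 at 0 h and 13.17, 13.15 and 13.25 at 6 h, and its non-polysomal signals 11.52, 11.59 and 11.49 at 0 h and 12.55, 12.45 and 12.42 at 6 h. The polysomal change was 1.51 ± 0.08 and the non-polysomal change 0.94 ± 0.08. Ube2d2a rose by 1.44 and 1.08 and was the gene nearest to Ube2k. The called M-values of Ube2d2a (0.36) and Ube2d3 (0.57) were uncalled with the 75th percentile (-0.06 and 0.15). The call of Ube2d2a was also lost without any replicate number (adjusted p from 0.0898 to 0.167), and that of Ube2d3 without replicate 2 (adjusted p = 0.0531) or 3 (adjusted p = 0.0738). Ube2d1 rose by 0.82 in the polysomal pool (4.63, 4.99 and 4.92 at 0 h, 5.73, 5.63 and 5.64 at 6 h) and by 0.80 in the non-polysomal pool (6.23, 6.27 and 6.47 at 0 h, 7.20, 7.07 and 7.09 at 6 h). Its M-value was 0.03 (95% interval -0.31 to 0.36), but -0.40 and called lower with the 75th percentile.

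The Ube2e enzymes differed among themselves. Ube2e1 rose by 1.08 in the polysomal and by 0.33 in the non-polysomal pool, the latter losing its call when any single non-polysomal array except replicate 3 at 0 h was left out. Ube2e2 fell by 0.78 in the non-polysomal pool and was uncalled in the polysomal one (-0.01, adjusted p = 0.924), where it was called lower with the 75th percentile (-0.49) and higher by a line fitted to the spike-ins (0.25). Ube2e3 had non-polysomal signals of 12.96, 12.97 and 12.88 at 0 h and 12.15, 12.05 and 12.12 at 6 h, a fall of 0.83 ± 0.12 (SE, adjusted p = 0.000179 by limma). Its polysomal signals of 11.85, 12.17 and 12.18 at 0 h and 11.46, 11.59 and 11.81 at 6 h gave the lowest polysomal change of the family (-0.45 ± 0.12, adjusted p = 0.00759), whose call was lost without replicate 2 (adjusted p = 0.104).

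Ube2h, the E2 of the CTLH ligase, had polysomal signals of 11.17, 11.34 and 11.25 at 0 h and 10.91, 10.95 and 11.01 at 6 h. The fall of 0.30 ± 0.08 was called (adjusted p = 0.00969 by limma), but not when any replicate number was left out (adjusted p from 0.0617 to 0.0748). The change was -0.78 and 0.02 with its other probes, and the called M-value of 0.38 was -0.04 and uncalled with the 75th percentile. Scaling by a straight line through the spike-ins gave Ube2h and Ube2t uncalled polysomal changes of 0.05 and 0.12. In the non-polysomal pool all 3 Ube2h probes fell, by 0.68 with the brightest. Ube2l3, the partner of HECT and RBR ligases, rose in the polysomal pool (0.78) and was uncalled in the other one (0.04), and Ube2w, which modifies the N-terminus of proteins, rose in both (0.92 and 0.56).

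Of the enzymes of DNA repair, the RAD6 proteins Ube2a and Ube2b, which modify histone H2B and PCNA, rose in the polysomal pool by 1.096 and 0.55. With their brightest probes they were uncalled in the non-polysomal pool (0.12 and 0.23). There, 1 of 2 Ube2a probes (0.42) and 1 of 4 Ube2b probes (0.38) were called higher. After quantile normalization Ube2b was lower in the polysomal pool (-0.36). Ube2t, the E2 of the Fanconi anaemia pathway, had the lowest non-polysomal change of the measured family members. Its non-polysomal signals were 8.63, 8.59 and 8.53 at 0 h and 7.13, 7.28 and 7.11 at 6 h, a fall of 1.41 ± 0.09 (SE, adjusted p = 9.51e-07 by limma). The polysomal signals of 9.52, 9.70 and 9.73 at 0 h and 9.31, 9.17 and 9.43 at 6 h gave a smaller fall of 0.34 ± 0.09 (adjusted p = 0.00993). The call of the polysomal fall was lost without replicate 2 (adjusted p = 0.106) and without replicate 3 (adjusted p = 0.0507). The M-value of Ube2t was 1.07 ± 0.13 (adjusted p = 0.000201), and it arose from the unequal falls in both pools.

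The E2 of ubiquitin-like modifiers were spread over the whole range. Ube2f, one of a pair of E2 for NEDD8, had the largest non-polysomal change of the family. Its non-polysomal signals had a mean of 10.61 with an SD of 0.16 and a lowest value of 10.42 at 0 h (n = 3), and were 12.35, 12.27 and 12.26 at 6 h, a rise of 1.69 ± 0.10 (SE; 3.22-fold, adjusted p = 3.78e-07 by limma). Its polysomal signals were 9.48, 9.62 and 9.62 at 0 h and 11.00, 10.95 and 11.16 at 6 h, a rise of 1.46 ± 0.10. Its M-value was the lowest of the measured members (-0.22, 95% interval -0.53 to 0.08) and uncalled on the spike-in scale, but it was called with the 75th percentile (-0.65) and quantile normalization (-0.52). Ube2m, the other E2 for NEDD8, rose by 1.31 in the polysomal and by 0.63 in the non-polysomal pool. Ube2z, which is loaded by Uba6, rose by 0.90 in the polysomal pool.

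Ube2l6, the E2 for the interferon-induced modifier ISG15, had non-polysomal signals of 8.22, 8.38 and 8.15 at 0 h and 7.13, 7.06 and 7.08 at 6 h, a fall of 1.16 ± 0.10 (SE, adjusted p = 7.64e-06 by limma). Its polysomal signals of 9.04, 9.32 and 9.35 at 0 h and 9.02, 9.04 and 9.21 at 6 h overlapped (-0.15, adjusted p = 0.242). The call in the polysomal pool depended on the scaling, with -0.63 and -0.61 called lower with the 75th percentile and quantile normalization and 0.34 called higher by a line fitted to the spike-ins. Isg15 itself fell by 1.27 in the non-polysomal and by 0.66 in the polysomal pool, and Uba7, the E1 for ISG15, rose by 0.38 in the non-polysomal and fell by 0.45 in the polysomal pool.

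Of the large or atypical members, Ube2o, which combines E2 and E3 activity, rose by 0.74 in the polysomal and by 0.84 in the non-polysomal pool. Its polysomal signals were 12.56, 12.82 and 12.69 at 0 h and 13.48, 13.39 and 13.43 at 6 h, and its non-polysomal signals were 10.30, 10.48 and 10.31 at 0 h and 11.29, 11.19 and 11.12 at 6 h. Its second probe was uncalled in both pools (-0.03 and -0.22), and after quantile normalization the brightest probe was lower in the polysomal pool (-0.16). Ube2q1 and Ube2q2 rose in both pools, by 0.91 and 0.37 and by 1.35 and 0.62. Ube2cbp, an E2-binding ligase that carries the symbol but is no E2, rose by 0.37 in the polysomal pool, which was an uncalled -0.12 with the 75th percentile and lost its call without replicate 1 (adjusted p = 0.0736) or replicate 3 (adjusted p = 0.0939).

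**Figure D3:**
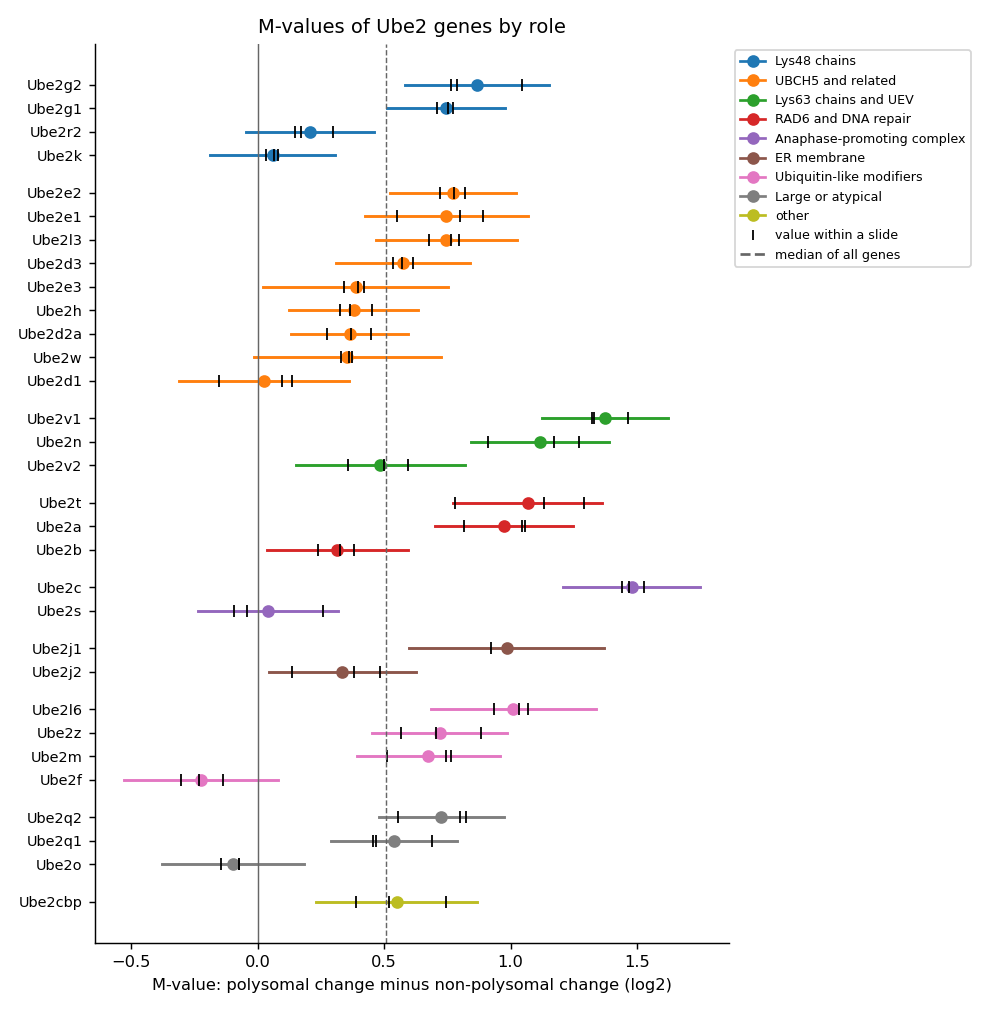
M-values (polysomal change minus non-polysomal change, log2) of 31 of the 32 Ube2 genes measured on all arrays, grouped by role, with their 95% intervals (coloured lines) and the values within each slide (black marks; Ube2j1 has 1, since outlier spots were left out). The dashed line is the median of all genes at 0.51; Ube2c at 1.48 is farthest to the right, and Ube2k, Ube2d1, Ube2s, Ube2o and Ube2f lie around 0.

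The M-value was called higher for 22 of 35 Ube2 genes (62.9%), against 40.5% of all genes. Among genes at or above the median probe, the M-value was called higher for 22 of 32 Ube2 genes (68.8%), against 55.9% of all in that range. It was called lower for none, against 4.45% of all genes, and Ube2f and Ube2o had values below 0. The median was 0.59 for the Ube2 genes and 0.51 for all genes, and 0.54 to 0.71 within the slides. The M-value exceeded 1 in 5 called Ube2 genes (Ube2c, Ube2v1, Ube2n, Ube2t and Ube2l6), which is 14.3% against 14.2% of all genes. These counts follow the scaling: 13 were higher and 6 lower with the 75th percentile (15.7% and 12.8% of all probes), 10 were higher and 7 lower after quantile normalization (13.9% and 14.6%), and 32 were higher and 0 lower with a line fitted to the spike-ins (80.8% and 0.746%). With the authors' values 24 of the 35 were higher, against 71.5% of all probes, and with normexp 26, against 79%. The Ube2 share was thus below the background under both. Without replicate 3 of all groups 14 were higher. Of the 18 genes that rose in both pools, Ube2d1, Ube2f, Ube2j2, Ube2k, Ube2o, Ube2s and Ube2w had no called M-value.

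The distribution between the pools differed widely among the Ube2 genes. The polysomal signal minus the non-polysomal one was called higher at 0 h for 13 Ube2 genes (37.1%, background 47.3%) and lower for 10 (28.6%, background 15.5%). At 6 h it was higher for 24 (68.6%, background 65.2%) and lower for 8 (22.9%, background 9.91%). Among these 24 were Ube2ql1 and Ube2u, which were well above background on no array. Brighter probes lay more in the polysomal pool. With only probes at or above the median probe, 14 of 32 Ube2 genes were higher and 10 lower at 0 h, against 66.2% and 23.2% of these probes. At 6 h 23 were higher and 8 lower, against 76.5% and 15.2%. The Ube2 medians were then 0.09 and 0.84, against 0.99 and 1.44 for all genes in that range. Ube2o (2.33), Ube2z (1.72) and Ube2j1 (1.24) had the largest differences at 0 h, and Ube2d1 (-1.47), Ube2d2a (-1.44) and Ube2m (-1.16) the lowest. Ube2k had 0.77 at 0 h and 0.83 at 6 h, above the Ube2 median of 0.07 at 0 h and near that of 0.85 at 6 h. The sign of such a difference rests on the scaling, since the Ube2 medians were -0.82 and -0.47 with the 75th percentile, -0.58 and -0.34 after quantile normalization, and -0.02 at 0 h by a line fitted to the spike-ins.

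Ube2c was the only Ube2 gene with a called lower polysomal signal at 0 h (-0.34) and a called higher one at 6 h (1.14), a combination found in 2.42% of all genes. Lower at both times were Ube2d1, Ube2d2a, Ube2e3, Ube2f, Ube2m, Ube2r2, Ube2s and Ube2w (22.9%, against 8.88% of all genes), and higher at both times were 13 genes, Ube2k among them (37.1%, against 45.6%). These classes hold on the spike-in scale, since with the 75th percentile 25 Ube2 genes were lower at 0 h and 22 at 6 h.

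**Figure D4:**
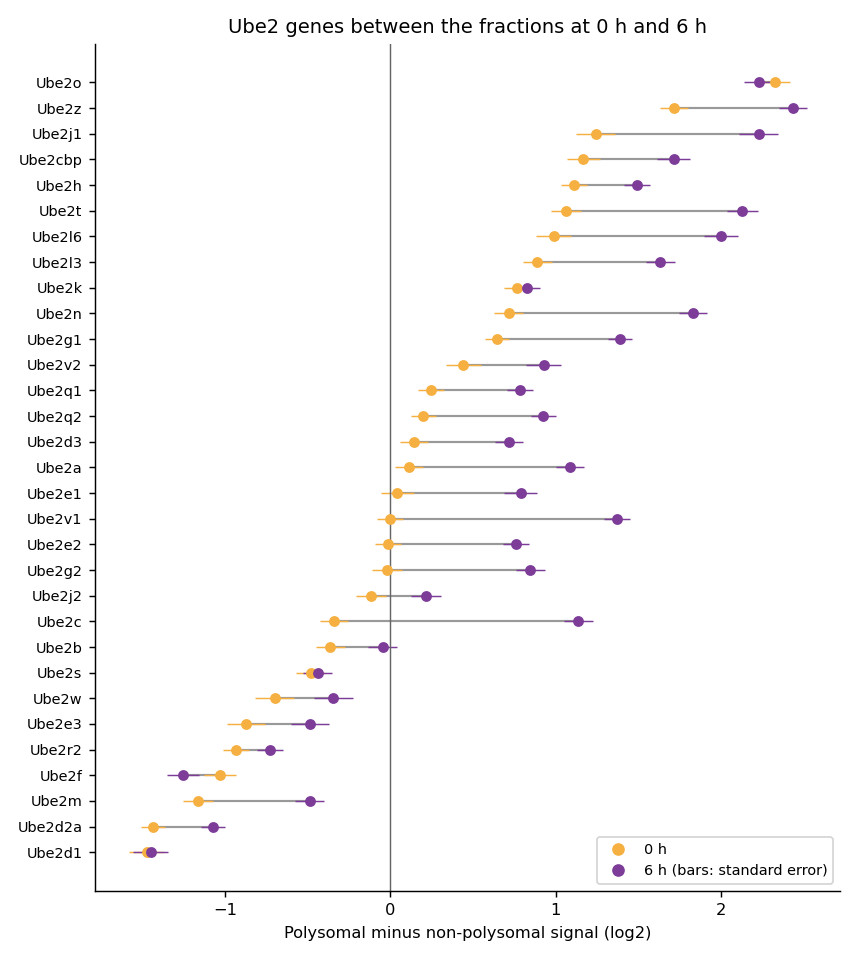
Polysomal minus non-polysomal signal (log2, horizontal axis) at 0 h (orange) and 6 h (violet) for 31 of the 32 Ube2 genes measured on all arrays, ordered by the value at 0 h, with standard errors. The points of Ube2k (0.77 and 0.83), Ube2s (-0.48 and -0.44), Ube2o and Ube2d1 nearly coincide, and Ube2c crosses 0 from -0.34 to 1.14.

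Genes that act before the E2 or share its fold were set beside the family. The shares of all genes for comparison are 52.5% higher and 14.8% lower in the polysomal pool and 24.6% and 25.4% in the non-polysomal pool. Of the 8 E1 genes, 4 were higher and 2 lower in the polysomal pool, near these shares, and 5 were higher and 3 lower in the non-polysomal pool. Nae1, a subunit of the E1 for NEDD8, had the lowest polysomal change (-0.47). In the non-polysomal pool Uba6, which loads Ube2z, had the highest change (1.34) and Nae1 again the lowest (-0.90).

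Of 8 other genes with the E2 fold, 5 were higher and 1 lower in the polysomal pool and 3 were higher and 3 lower in the non-polysomal pool, against the same shares of 52.5% and 14.8% and of 24.6% and 25.4%. Cdc34, the E2 of SCF ligases, had the highest polysomal change (1.198) and Aktip the lowest (-0.20), and Birc6 the highest (1.33) and Uevld the lowest (-0.86) non-polysomal change. Of 11 ubiquitin and ubiquitin-like genes, 8 were higher and 2 lower in the polysomal pool (52.5% and 14.8% of all genes), and 7 were higher and 1 lower in the non-polysomal pool (24.6% and 25.4%). Rps27a, which encodes ubiquitin fused to a ribosomal protein, had the highest polysomal change (2.01) and Isg15 the lowest (-0.66), and in the non-polysomal pool Ufm1 (1.38) and Isg15 (-1.27) were at the ends. Nedd8, the modifier that Ube2f and Ube2m carry, rose by 1.56 in the polysomal and by 1.03 in the non-polysomal pool.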

How the data were processed

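The RNA of 2 pools of gradient fractions at 0 h and 6 h was hybridised to 12 one-colour arrays of 45018 spots. The deposited scanner files (Feature Extraction 10.7.1.1, per the file headers) hold intensities after background subtraction and detrending by that software, without normalization across arrays, with marks of outliers and background as other values. The authors also deposited log2 values per probe, which are median pixel signals plus a constant on each array.

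Here, log2 background-subtracted signals were used without outlier spots, spots of a probe were averaged, and each array was shifted by the mean offset of 10 spike-in transcripts. One fit over the 4 groups was made with limma 3.58.1 in R 4.3.3, with Benjamini-Hochberg adjustment over all probes and no block. Figures were drawn with matplotlib 3.10.9. Probes were named through RefSeq accessions (26690 of 41174 probes). Values in every array are given for Ube2k and the 4 highest and 4 lowest measured genes of each change. Members, roles and lists were chosen with earlier results of these data known. Similarity of the proteins was not analysed here, and single values of 3 genes, which remain in all counts, are not reported here. The steps were tested on simulated data, in which the M-value of 200 of 40808 probes was changed by 2-fold. Of these changes 34% were called, so an uncalled M-value does not show that the pools changed equally. The changed probes were drawn from all probes, dim ones included. The share for bright probes alone, and that for the real data, with more probes changed, were not tested. The 3 replicates and the signal over background limit the precision. Replicate numbers equal slides, and deviations of same-numbered arrays correlated with r from -0.10 to 0.42 (median 0.07, against -0.04 for different numbers), over 0.1 in 4 of 18 pairs, so the numbers were not treated as pairs. Alternatives were other scalings, the authors' values, normexp with an offset of 50, filters on dim probes, outlier spots kept, the replicate block, a variance trend, gene means, and leaving out arrays.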

Additional observations from a re-analysis of the deposited data

Results flagged for a closer look

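The change differed between the pools, by the limma test of the M-value itself, in 22 Ube2 genes, 21 of which are given here. All of them had the larger value in the polysomal pool. Of all genes, 40.5% had an M-value called higher and 4.45% one called lower. With the 75th percentile 13 Ube2 genes were higher and 6 lower, and after quantile normalization 10 were higher and 7 lower. The M-values were 1.48 for Ube2c, 1.37 for Ube2v1, 1.12 for Ube2n, 1.07 for Ube2t and 1.01 for Ube2l6. They were 0.98 for Ube2j1, 0.97 for Ube2a, 0.87 for Ube2g2, 0.77 for Ube2e2, 0.75 for Ube2l3, 0.75 for Ube2e1, 0.74 for Ube2g1, 0.73 for Ube2q2, 0.72 for Ube2z and 0.67 for Ube2m. The smallest were 0.57 for Ube2d3, 0.55 for Ube2cbp, 0.54 for Ube2q1, 0.49 for Ube2v2, 0.38 for Ube2h and 0.36 for Ube2d2a. The calls of Ube2cbp, Ube2h, Ube2v2 and Ube2d2a were lost when any 1 of the replicate numbers was left out, that of Ube2d3 without replicate 2 or 3, and those of Ube2j1, Ube2q1 and Ube2m without replicate 3. The median of all genes was 0.51, and Ube2v2, Ube2h and Ube2d2a lay below it. With 3 arrays in a group, single arrays were not tested for standing apart.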

How the results depend on the processing

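All changes of sign listed here came from the scaling between arrays. With the 75th percentile, 6 Ube2 genes were lower in the polysomal pool in place of 3, the medians of the polysomal change and the M-value were 0.43 and 0.17, and the M-value was higher for 13 and lower for 6 genes. The polysomal minus non-polysomal signal was then higher for 6 and lower for 25 genes at 0 h (median -0.82) and higher for 9 and lower for 22 at 6 h (median -0.47). After quantile normalization 9 genes were lower in the polysomal pool, the medians of the polysomal change, the non-polysomal change and the M-value were 0.36, 0.17 and 0.069, and the M-value was higher for 10 and lower for 7. The difference between the pools was then higher for 6 and lower for 23 genes at 0 h (median -0.58) and higher for 9 and lower for 21 at 6 h (median -0.34). With a line fitted to the spike-ins 0 genes were lower in the polysomal pool (3 in the main analysis), the medians were 1.38, 0.22 and 1.04, and the difference between the pools had medians of -0.022 and 1.31, with 5 genes lower at 6 h. Ube2k took place 19 in the polysomal change with quantile normalization and the fitted line and place 9 with gene means. In the non-polysomal change it took places 9 and 6 with quantile normalization and gene means. In the M-value it took place 33 with quantile normalization, the fitted line, the authors' values and normexp. With either filter on dim probes Ube2k took place 28 of 32 in the M-value. The filters had removed Ube2dnl2, Ube2ql1 and Ube2u, which all stood above Ube2k, so its position was the same.

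Among results called on at least one of the scales compared, signs turned under quantile normalization for the polysomal change of Ube2b (-0.36), Ube2c (-0.063), Ube2o (-0.16), Ube2ql1 (-0.018) and Ube2r2 (-0.74), the non-polysomal change of Ube2v1 (-0.24), and the M-value of Ube2b (-0.29), Ube2h (-0.18), Ube2k (-0.49, and -0.40 and -0.37 with its other bright probes), Ube2q1 (-0.004), Ube2r2 (-0.37) and Ube2s (-0.35). With the 75th percentile they turned for the polysomal change of Ube2cbp (-0.12) and Ube2r2 (-0.38) and the M-value of Ube2d1 (-0.40), Ube2d2a (-0.06), Ube2h (-0.044), Ube2k (-0.36, and -0.24 and -0.28 with its other bright probes), Ube2r2 (-0.22) and Ube2s (-0.38). With the fitted line they turned for the polysomal change of Ube2e2 (0.25), Ube2h (0.049), Ube2l6 (0.34) and Ube2t (0.12). The causes were not tested.

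With the replicate number as a block, 27 genes were higher and 3 lower in the polysomal pool, 18 and 6 in the non-polysomal pool, and 21 had a higher M-value. The block ended the call of the M-value of Ube2v2 (adjusted p = 0.0538 by limma) and no other among the 111 single-gene results. Leaving out replicates or arrays gave 25 to 28 genes higher and 0 to 4 lower in the polysomal pool (0 without replicate 2, 1 without replicate 3), 15 to 19 higher and 6 to 7 lower in the non-polysomal pool, and 14 to 25 with a higher M-value (14 without replicate 3) and 0 with a lower one. The medians were 0.88 to 1.00, 0.26 to 0.33 and 0.51 to 0.64. Ube2k took places 12 to 14, 4 and 31 to 33. The difference between the pools was higher for 12 to 15 and lower for 8 to 11 genes at 0 h (median 0.007 to 0.15) and higher for 23 to 25 and lower for 7 to 8 at 6 h (median 0.78 to 0.88). Normexp on all spots was not used, since its fit left 3 arrays with medians of 292.4 to 1069; normexp without spots of uneven background was chosen after seeing the data.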

Other observations

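Ube2dnl2, a gene related to Ube2d, was well above background on 1 array, and its polysomal change of 0.38 and non-polysomal change of -1.11 were uncalled. Ube2u gave uncalled values of 1.32 and -0.83, and Ube2ql1 a called polysomal change of 0.51, without any array well above background for either gene. Of the 24 Ube2 genes with several probes, none had probes called in opposite directions in any comparison. All probes were higher in the polysomal pool in 21 of them, in the non-polysomal pool in 14 and in the M-value in 11.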
